A study of Drosophila melanogaster with 30 samples.

Results

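The proteasome is the protease complex that degrades ubiquitin-tagged proteins in the cytosol and nucleus. Its barrel-shaped core particle has outer alpha rings, which gate the entry, and inner beta rings, of which Prosbeta1, Prosbeta2 and Prosbeta5 carry the proteolytic sites. A regulatory particle sits on the barrel: its base holds the Rpt ATPases that unfold and feed in the substrate and the ubiquitin receptors, and its lid holds the deubiquitinase Rpn11 within a scaffold of other Rpn subunits. Drosophila also carries duplicated subunit genes, written with T or R, several of which are known for expression in the male germline.

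The genes described here are the rows of the table of estimated counts whose gene name starts with Prosalpha, Prosbeta, Rpn or Rpt followed by a digit. They were 48 of 17895 gene rows. Of these, 32 were standard subunits (7 of the alpha ring, 7 of the beta ring, 6 Rpt ATPases, 4 other subunits of the base and 8 of the lid) and 16 were T or R paralogues. All 32 standard subunits and 4 paralogues (Prosalpha1R, Rpn13R, Rpt3R and Rpt6R) passed the filter on low counts. The other 12 paralogues were not tested and stayed at or below 0.225 CPM in every library, where CPM is a count relative to the scaled total of gene counts of its library.

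Polyadenylated RNA was sequenced from brains of Drosophila melanogaster males, in 30 libraries of 30 pooled brains each. The 10 groups held 3 libraries each and paired 5 genotypes with group housing (GH) or single housing (SH). The effect of social experience and the difference of each mutant genotype from the wild type could thus be read. The wild type was Canton-S (CS). The mutants were w+/Y; Or47b2/3;+/+ and w+/Y; +/+; Or67dGAL4/GAL4, which affect pheromone receptors, and w+/Y; +/+; fruLexA/4-40 and w-/Y; +/+; dsxf00683-d07058/f01649-d09625, which affect transcription factors of sex determination. For each mutant, the alleles and the rest of the strain cannot be told apart, and the dsx genotype alone is labelled w-.

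Gene counts per library ranged from 37.3 to 119.8 M. Transcript of fru stood at 28.8 ± 2.15 CPM in fru GH against 179 ± 21.0 CPM in CS GH (SD, n = 3), and transcript of dsx at 9.41 ± 0.274 against 13.5 ± 0.791 CPM in the GH groups of dsx and CS. Or67d had 0 counts in its 6 mutant libraries, and 42 and 48 counts over the CS GH and CS SH libraries. Or47b had 0 counts in its mutant and only 1 and 5 in the same CS groups, too few to check that label. Markers of neurons summed to 5840 to 8305 CPM in the 6 CS libraries, and 8 markers of testis germline to at most 1.89 CPM. A deposited table puts 6 CS, Or47b and fru libraries in a dissection batch called AC and the other 24 in notAC. All Or67d and dsx libraries are notAC, and the batch was a term in every main test. Replicates are separate pools of brains, and p-values measure the spread between these pools. In bulk tissue, fewer cells of a type and less RNA per cell cannot be told apart, which holds for every result below.

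In the wild-type brain, RNA levels of 31 of the standard subunits were compared per kilobase of merged exons. In CS GH these 31 had a median of 31.8 CPM per kb, and the highest was 2.92 times the lowest. Prosbeta5, the chymotrypsin-like catalytic subunit, was the highest at 57.7 ± 4.98 CPM per kb (SD, n = 3), and it was the highest in 10 of the 10 groups. Rpn2, a large scaffold of the base, was the lowest at 19.8 ± 0.678 CPM per kb, and the lowest in 7 of the 10 groups. Between them, 28 of the 30 neighbouring pairs in the order had overlapping CS GH libraries, so most ranks in the middle are not separated by these libraries. The median per kb was 34.3 in the beta ring, 34.2 among the Rpt ATPases, 32.5 in the alpha ring, 27.2 in the lid and 24.3 among the other base subunits.

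The remaining standard subunit, Prosalpha1 of the alpha ring, could not be measured apart from its paralogue. Prosalpha1 (2R, 7827303 to 7828678, BDGP6, minus strand) and Prosalpha1R (2R, 7830413 to 7831771, minus strand) lie 1734 bases apart, and the estimated counts of both were not whole in all 30 libraries. Prosalpha1 took between 3.29% and 69.3% of their summed level, and both extremes were libraries of fru GH. Its median share was 17.2% in the 6 AC libraries and 31.7% in the 24 notAC libraries. The split between the pair therefore varied within groups and with the batch, and only their sum is used for direction.

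The sum of the pair stood higher in the Or47b mutant than in every other genotype. It read 36.6, 38.1 and 38.5 CPM in the CS GH libraries and 49.5, 65.1 and 51.0 CPM in the Or47b GH libraries. In SH it read 36.4, 39.8 and 37.5 CPM in CS and 55.2, 52.1 and 50.0 CPM in Or47b. Every Or47b library lay above every library of the other 4 genotypes. With the pair counted as 1 gene, a setting chosen after seeing the data, the log2 change against CS was 0.55 in GH (edgeR quasi-likelihood test with Benjamini-Hochberg adjustment, adjusted p = 0.00107) and 0.47 in SH (adjusted p = 0.00399). The genes lie on the same chromosome arm as Or47b, 3.49 Mb away, and whether that distance has a part in the result was not tested. The exons of Prosalpha1 overlap the gene phr and those of Prosalpha1R overlap CG18853, both on the opposite strand. Whether reads of these neighbours entered the sum was not tested.

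**Figure D1:**
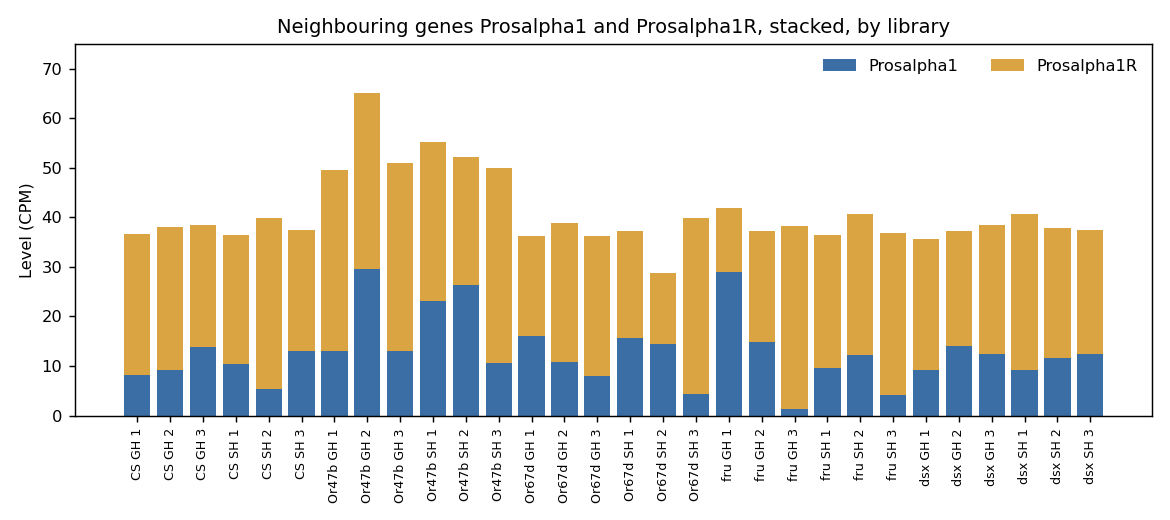
Level of Prosalpha1 and Prosalpha1R in CPM, stacked, in each of the 30 libraries. The boundary between the colours moves from library to library, while the summed bar is highest in the 6 Or47b libraries.

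Social isolation was not accompanied by a detected change in any subunit gene. None of the 36 tested members passed the threshold (adjusted p under 0.05, edgeR) for SH against GH in any of the 5 genotypes or in their average, and DESeq2 likewise called 0. At an unadjusted p under 0.05 there were 3 members in CS, 0 in Or47b, 0 in Or67d, 2 in fru, 2 in dsx and 2 in the average. At that unadjusted threshold the shares of all genes were 18.5%, 4.29%, 3.02%, 10.5%, 3.39% and 9.55%. Over all genes tested, the share called after adjustment was 1.86% in CS, 0.213% in Or47b, 0.0266% in Or67d, 0.169% in fru, 0.0177% in dsx and 1.28% in the average.

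The data limit the average effect of isolation to small sizes. For the 31 standard subunits other than Prosalpha1, the 95% intervals of the averaged effect lay within -0.18 to 0.10 on the log2 scale. In CS alone, the median over the standard subunits was 0.04, beside 0.001 over all genes, and the intervals of those 31 reached from -0.25 to 0.38. Rpn2 had the lowest unadjusted p of these: it read 67.7, 69.7 and 65.1 CPM in CS GH and 77.0, 86.0 and 72.3 CPM in CS SH, which is a difference of 0.21 ± 0.0808 on the log2 scale (SE, edgeR adjusted p = 0.145). Its libraries did not overlap between the housings, yet the difference did not pass the test.

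The mutants gave equally small medians, of -0.01 in Or47b, -0.06 in Or67d, 0.03 in fru and -0.07 in dsx. In Or67d, all 32 standard subunits had a fitted change below 0, and in dsx 30 of 32 did, with none called in either, beside 52.1% and 51.9% of all genes. In the Or67d SH group, replicate 2 was the lowest of the 24 libraries outside dsx for 17 of the 31 subunits. Without that library the Or67d median was 0.01. None of the 36 members was called for a housing effect that differed from that of CS, where the called share of all genes was 0.0177% for Or47b, 0.177% for Or67d, 0.222% for fru and 0.00887% for dsx. At an unadjusted p under 0.05 these tests had 1, 4, 0 and 3 members, beside 8.3%, 14.3%, 8.12% and 13.4% of all genes, and DESeq2 called 0. For 4 of the 36 members, every SH library lay above every GH library in 1 genotype and below in another, beside 4.93% of all genes.

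**Figure D2:**
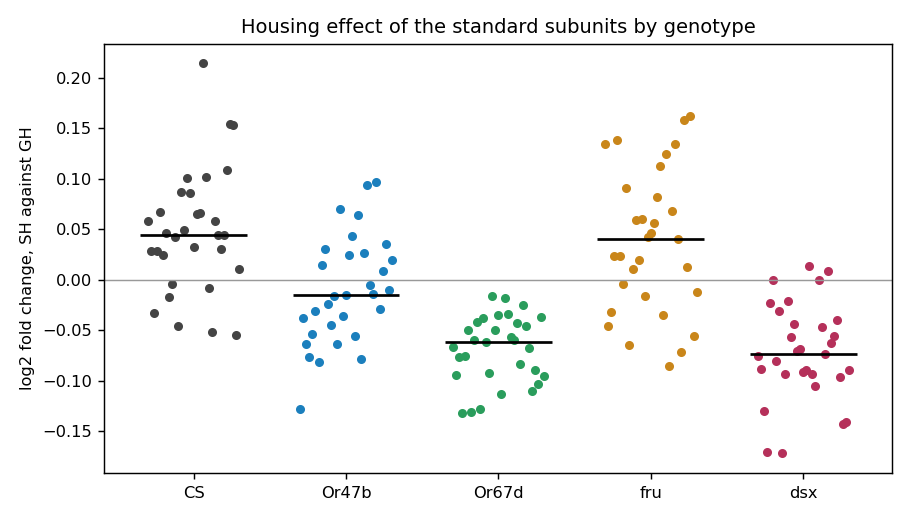
Log2 fold change of SH against GH for the 31 standard subunits other than Prosalpha1 in each genotype, 1 point per gene, with the median as a line. Points of CS lie mostly above 0 and those of Or67d below 0, and none passed the test.

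In the dsx mutant, subunits of both particles were lower than in the wild type. The summed level of the standard subunits and Prosalpha1R lay between 1199 and 1282 CPM in 6 libraries, below the 1290 to 1569 CPM of the other 24. Against CS the sum was 0.896 times as high in GH and 0.826 times in SH. The core particle summed to 431 ± 9.41 CPM in dsx GH against 493 ± 11.5 in CS GH (SD, n = 3), and the regulatory particle to 824 ± 14.2 against 908 ± 23.0 CPM. In SH the core was at 414 ± 8.03 against 501 ± 15.1 CPM and the regulatory particle at 787 ± 6.90 against 953 ± 20.1 CPM. The ratio of regulatory to core level was 1.84 to 1.95 in the dsx libraries and 1.58 to 2.01 in the others, so the groups overlapped in it.

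**Figure D3:**
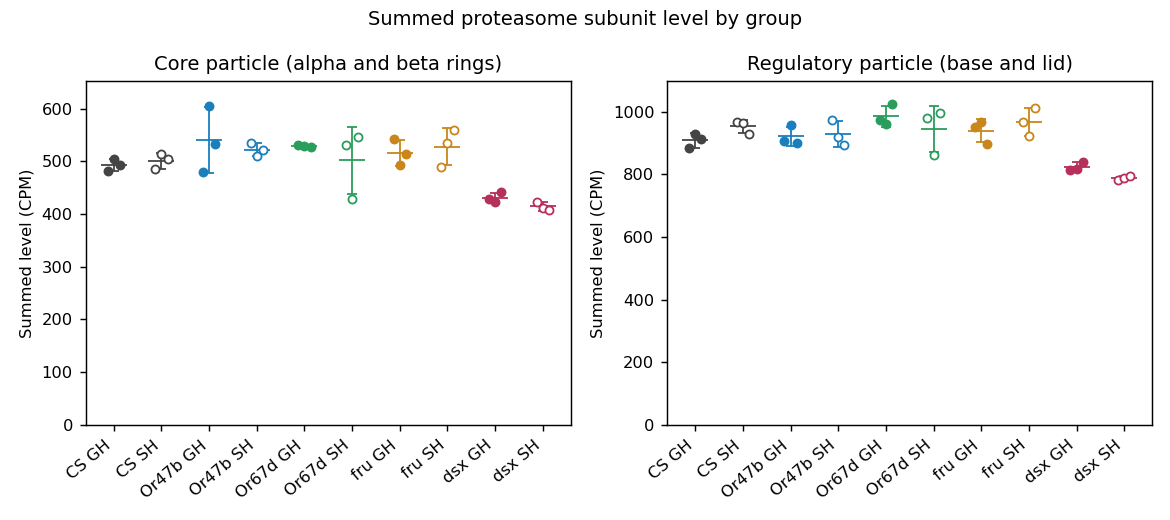
Summed level in CPM of the core particle and of the regulatory particle by group. Points are libraries (filled GH, open SH), and bars are the mean and SD of 3. All 6 dsx libraries lie below the CS libraries in both panels.

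Of the 32 standard subunits, 13 were lower in dsx than in CS in GH (40.6%, edgeR quasi-likelihood test, adjusted p under 0.05) and none was higher, while 13.6% of all genes were called lower and 8.12% higher. In SH 24 were lower (75%) and none higher, while 23.4% of all genes were called lower and 18.7% higher. In either direction, 21.7% of all genes were called in GH and 42.1% in SH, so the count of subunits is read against a wide change. The median log2 change over the standard subunits was -0.20 in GH and -0.28 in SH, beside -0.04 and -0.06 over all genes. The 13 genes lower in GH were also lower in SH, 11 more were lower in SH only, and 8 in neither. The comparisons in GH and SH use separate libraries but share the estimate of spread and the batch term. No subunit's difference between the housings was called, so the larger count in SH does not show a larger effect there.

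Taken library by library, 21 of the 32 had every dsx library below every CS library in GH, beside 27.7% of all genes, and 28 of 32 did in SH, beside 31% of all genes. For 9 subunits, all 6 dsx libraries lay below all 24 libraries of the other genotypes, beside 5.74% of all genes. These were Prosalpha2, Prosalpha3, Prosalpha7, Prosbeta7, Rpt3, Rpn1, Rpn3, Rpn7 and Rpn13. Over the 31 subunits other than Prosalpha1, a dsx group had the lowest mean of the 10 groups in 30, beside 34.1% of all genes, and the exception was Rpn6.

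In the alpha ring, which gates the barrel, 3 subunits were lower in both housings. Prosalpha3 read 31.4, 33.5 and 32.0 CPM in CS GH and 27.1, 26.3 and 25.6 CPM in dsx GH, and in SH 31.4, 33.0 and 34.4 against 25.3, 24.6 and 24.4 CPM. No dsx library reached a CS library. The log2 change was -0.29 ± 0.0814 in GH (SE, edgeR adjusted p = 0.0121) and -0.41 ± 0.0818 in SH (adjusted p = 0.000448). Prosalpha2 was lower by a similar amount, at -0.30 and -0.43, and Prosalpha7 at -0.21 and -0.24. The Prosalpha7 call was lost under 12 of 16 alternative fits in GH (other settings or 1 library left out) and 3 of 16 in SH. The Prosalpha2 call was lost under 8 of 16 in GH and 1 of 16 in SH.

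Prosalpha5 passed the test in SH only, and had the lowest log2 change of the standard subunits there. It read 33.0, 27.4 and 31.9 CPM in CS SH and 22.5, 23.8 and 19.9 CPM in dsx SH, which is -0.53 ± 0.128 on the log2 scale (edgeR adjusted p = 0.00206). In GH its change was -0.33 ± 0.128 (adjusted p = 0.0637), with every dsx library below every CS library. Prosalpha4 and Prosalpha6 were called in neither housing: Prosalpha4 read 26.6, 27.1 and 25.1 CPM in CS GH and 30.0, 25.8 and 28.3 CPM in dsx GH, and the groups overlapped.

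In the beta ring, the catalytic subunits Prosbeta1, of caspase-like activity, and Prosbeta5 were lower in both housings. Prosbeta1 read 29.0, 31.6 and 27.2 CPM in CS GH and 22.0, 21.9 and 23.9 CPM in dsx GH, and in SH 28.7, 32.2 and 29.9 against 21.7, 20.9 and 21.6 CPM. The groups were apart in both, with log2 changes of -0.36 ± 0.104 (edgeR adjusted p = 0.0153) and -0.48 ± 0.105 (adjusted p = 0.000861). Its exons overlap a gene on the opposite strand, CG8389, and whether counting used strand is not given in the sources used here. Exons of 13 of the standard subunits overlap an opposite-strand gene, among them Prosalpha2 (Aos1), Rpt6 (CG1801) and Rpn7 (CG34376). Prosbeta5, which overlaps Lsm10 in the same way, was at -0.30 ± 0.101 (adjusted p = 0.0391) and -0.27 ± 0.101 (adjusted p = 0.0343). The Prosbeta5 call was lost under 11 of 16 alternative fits in GH and 10 of 16 in SH, with DESeq2 among them in both. The Prosbeta1 call was lost under 3 of 16 in GH and 0 in SH.

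The trypsin-like subunit Prosbeta2 was lower in SH, at -0.18 ± 0.0685 (edgeR adjusted p = 0.0434), and in GH was at -0.16 without passing the test. Its call in SH was lost under 12 of 16 alternative fits. The structural subunits Prosbeta3, Prosbeta6 and Prosbeta7 were lower in SH as well, at -0.28, -0.43 and -0.30. Prosbeta4, another structural subunit, passed in neither housing. It read 23.4, 23.7 and 24.7 CPM in CS SH and 21.9, 21.6 and 19.2 CPM in dsx SH.

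Among the ATPases of the base, Rpt3 (X, 11125101 to 11126785, BDGP6, plus strand) had the smallest adjusted p of any member in SH. It read 54.4, 57.1 and 52.1 CPM in CS GH and 45.9, 45.6 and 48.2 CPM in dsx GH. In SH it read 63.2, 58.9 and 60.0 CPM in CS and 44.4, 45.2 and 41.0 CPM in dsx. All dsx libraries lay below all others of the series, which started at 50.1 CPM. The log2 change was -0.25 ± 0.0683 in GH (SE, edgeR adjusted p = 0.0118) and -0.50 ± 0.0686 in SH (adjusted p = 9.4e-06).

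Rpt1 and Rpt6 were lower in both housings, at -0.18 and -0.28 for Rpt1 and -0.24 and -0.34 for Rpt6. The Rpt1 call was lost under 14 of 16 alternative fits in GH and 2 of 16 in SH. The Rpt6 call was lost under 7 of 16 in GH and 1 of 16 in SH. Rpt2 and Rpt5 were lower in SH, at -0.29 and -0.24. Rpt4 was called in neither: it read 37.7, 42.4 and 43.1 CPM in CS GH against 42.0, 43.1 and 44.4 in dsx GH, with overlap. In SH it read 45.5, 45.0 and 46.4 against 38.7, 37.7 and 40.8 CPM, without overlap, at -0.20 ± 0.0805 (edgeR adjusted p = 0.0504).

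The ubiquitin receptors of the base, Rpn1, Rpn10 and Rpn13, were all lower in SH, and Rpn10 and Rpn13 also in GH. Rpn13 (2R, 13958545 to 13960404, minus strand) had the smallest adjusted p of the standard subunits in GH. It read 41.7, 44.3 and 43.2 CPM in CS GH and 36.5, 33.5 and 34.1 CPM in dsx GH, and in SH 43.7, 48.8 and 42.9 against 35.5, 33.9 and 35.7 CPM. The groups did not overlap, at log2 changes of -0.30 ± 0.0707 (edgeR adjusted p = 0.00355) and -0.35 ± 0.0711 (adjusted p = 0.000464). Rpn10 was at -0.21 and -0.36, Rpn1 at -0.37 in SH, and the scaffold Rpn2 at -0.26 in SH against 0.05 in GH, where it did not pass. The Rpn10 call was lost under 8 of 16 alternative fits in GH and 1 of 16 in SH. In SH the Rpn2 call was lost under 3 of 16 and the Rpn1 call under 1 of 16.

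Of the lid, Rpn3, Rpn7 and Rpn12, which are scaffold subunits, were lower in both housings. Rpn3 (2L, 19051790 to 19053681, plus strand) read 39.6, 45.8 and 43.9 CPM in CS GH and 34.9, 35.8 and 36.0 CPM in dsx GH, and in SH 47.2, 46.6 and 45.0 against 32.9, 33.0 and 33.2 CPM. The dsx libraries were below all others, at -0.30 ± 0.0784 (edgeR adjusted p = 0.00734) and -0.51 ± 0.0786 (adjusted p = 3.45e-05). Rpn12 was at -0.34 and -0.49, and Rpn7 at -0.22 and -0.35. The Rpn12 call was lost under 4 of 16 alternative fits in GH and 1 of 16 in SH, and the Rpn7 call under 3 and 1.

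The deubiquitinase Rpn11 and its partner Rpn8 were lower in SH only, each at -0.20. The Rpn11 call was lost under 10 of 16 alternative fits. The Rpn8 call was lost under 9 of 16, and its sign reversed in 1 more. Rpn5, Rpn6 and Rpn9, further scaffold subunits of the lid, were called in neither housing. Rpn6 read 53.1, 52.9 and 55.2 CPM in CS GH and 59.2, 55.0 and 54.1 CPM in dsx GH, with overlap, and its highest group mean was 1.12 times its lowest, the smallest such ratio of the 31 subunits. The largest was that of Prosbeta1, at 1.56, and without the dsx groups the ratios lay between 1.07 and 1.32.

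**Figure D4:**
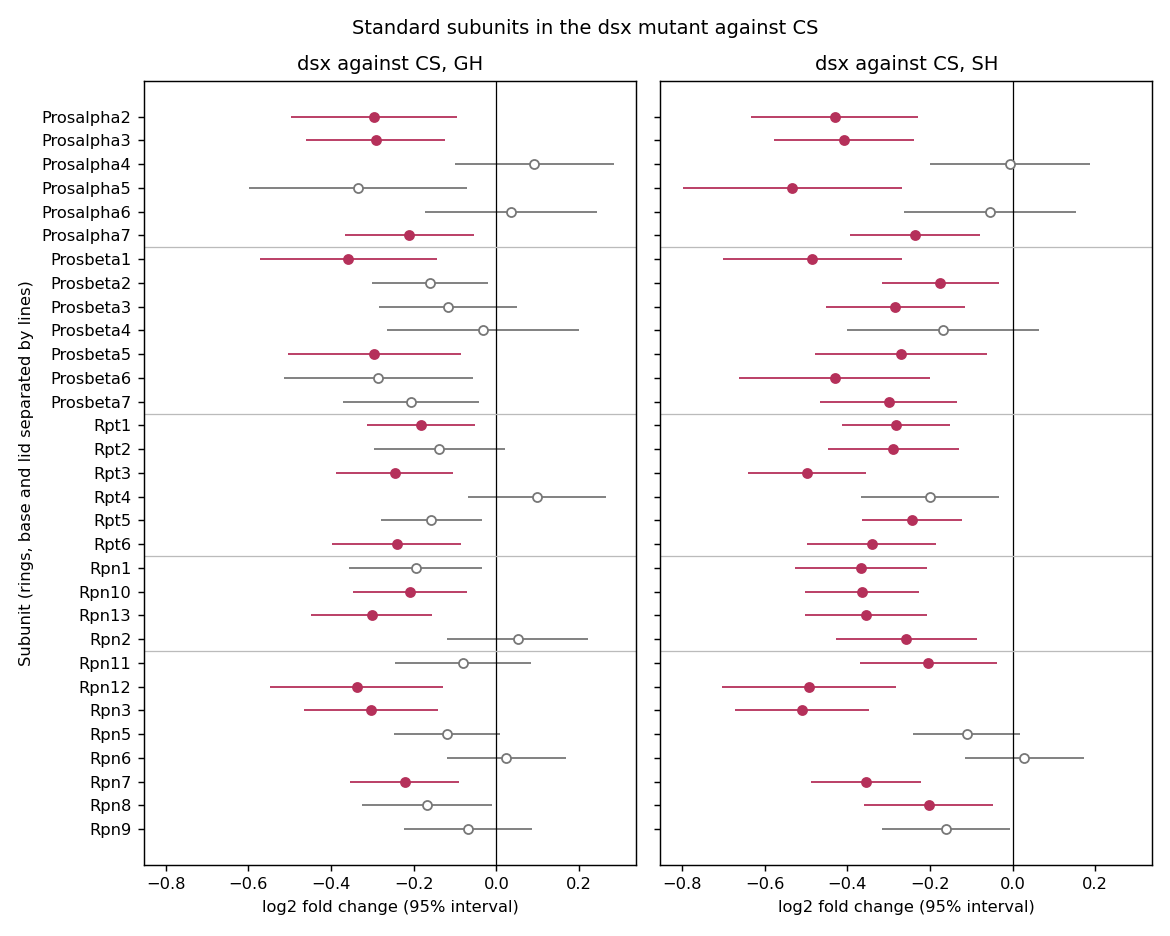
Log2 fold change of dsx against CS with its 95% interval for the 31 standard subunits other than Prosalpha1, in GH and SH. Filled points passed the test. Of these 31, 13 in GH and 24 in SH are filled, and all filled points lie below 0.

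Set beside the other mutants, comparisons that were added after seeing the data, dsx was lower as well. In GH, 18 standard subunits were lower than in Or47b, 23 than in Or67d and 19 than in fru, where 16.6%, 20.6% and 18% of all genes were called lower. In SH these counts were 21, 23 and 26, beside 17.9%, 19.4% and 24.7% of all genes. No standard subunit was higher in any of these 6 comparisons, where 12.1%, 16.9% and 12.7% of all genes were called higher in GH and 11.5%, 15.6% and 19.6% in SH. All 6 use the same dsx libraries as those against CS. Without Or47b GH replicate 2, the library with the highest level of 9 subunits, the members called against Or47b in GH went from 18 to 4, and without dsx GH replicate 1 or 2 to 11 or 8. Those called against fru in GH went from 20 to 12 without fru GH replicate 1.

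The count in GH moved with single libraries. Without CS GH replicate 2, only 3 members were called in dsx against CS in place of 14, without dsx GH replicate 1 there were 6, without dsx GH replicate 2 there were 7, and without dsx GH replicate 3 there were 9. In SH, where 25 members were called, leaving out a library gave 19 to 23. Within the notAC libraries, 10 standard subunits were lower in GH and 24 in SH.

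The mitochondrial share of the libraries moved with the dsx mutant as well. Mitochondrially encoded genes took 12.4% to 14.1% of the gene counts in the 6 dsx libraries and 2.51% to 11.1% in the other 24. With those genes left out before scaling, 8 standard subunits were lower in GH and 20 in SH. With the share as a covariate, also chosen after seeing the data, 1 was lower in GH and 2 in SH, at medians of -0.15 and -0.19. Since the share did not overlap between dsx and the rest, the share and the genotype cannot be told apart.

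Markers of neurons summed to 9542 to 10066 CPM in dsx against 5840 to 8305 CPM in CS. Of the 7 markers, 3 were higher in dsx GH and 5 in dsx SH. Of all genes, 8.12% were called higher in GH and 18.7% in SH, and 13.6% and 23.4% were called lower. Among the other mutants, the neuron sum reached 9753 CPM in Or67d SH, within the dsx range. The 4 genes listed as markers of fat body summed to 2348 to 3447 CPM in dsx against 1336 to 2124 CPM in CS. Of these, 2 were higher in dsx GH and 3 in dsx SH. The fat body sum was 2419 to 3121 CPM in Or67d GH and reached 2745 CPM in Or47b SH and 4943 CPM in fru SH. High sums were thus not particular to dsx. In dsx, Lsp2 and Yp1 were higher in both housings, Obp44a was higher in SH only, at 0.47, and Fbp1 was called in neither. Whether Obp44a marks fat body in brain samples was not checked. The yolk protein gene Yp1 is also a known direct target of the Dsx proteins. Markers of photoreceptors, from the retina beside the brain, summed to 108 to 181 CPM in dsx and to 106 to 1091 CPM in CS, and 1 of 4, ninaE, was lower in SH at -3.20 ± 0.883 (edgeR adjusted p = 0.00582). Markers of muscle summed to 3.66 to 31.1 CPM in dsx and 25.7 to 108 CPM in CS, with 0 of 3 tested called in GH and 2 of 3, Act57B and Mhc, lower in SH at -2.26 and -2.32.

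Markers of glia summed to 1308 to 1401 CPM in dsx and 939 to 1337 CPM in CS. None of the 4 was called in GH, and in SH repo was lower at -0.47 and Eaat1 higher at 0.43. Markers of haemocytes summed to 269 to 302 CPM in dsx and 240 to 333 CPM in CS, so the groups overlapped. Of the 3, NimC1 was higher in both housings, at 0.89 and 1.01, and Pxn was lower in SH at -0.32. Of 3 tested markers of testis germline, can was lower in GH at -1.92 and none was called in SH. The part of these cell types in the lower subunit levels was not tested.

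Among related genes, the COP9 signalosome, a complex whose subunits resemble those of the lid, had 5 of 8 tested members lower in dsx GH and 4 of 8 in SH, with medians of -0.21 and -0.26, where 13.6% and 23.4% of all genes were called lower. CSN6 was at -0.21 ± 0.0572 and -0.34 ± 0.0574 (edgeR adjusted p = 0.00907 and 9.57e-05). The CCT chaperonin, another large cytosolic complex, had 0 of 8 called in either housing, by edgeR at the same threshold. Its log2 changes ran from 0.02 to 0.39 in GH and from -0.26 to 0.01 in SH. Their SEs in GH were 0.0989 to 0.194, beside 0.0572 to 0.114 for the COP9 genes. The CCT sum spread from 302 to 534 CPM within dsx GH, so the lack of calls does not show an unchanged level. Cytosolic ribosomal protein genes had 35 of 89 lower and 4 higher in GH, and 67 lower and 4 higher in SH.

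Of 7 tested partners and assembly factors of the proteasome, 1 was lower in each housing, a share near the 13.6% of all genes called lower in GH and below the 23.4% in SH. The proteasome-bound deubiquitinase gene Usp14 was at -0.19 ± 0.0613 in GH (edgeR adjusted p = 0.0277), and the assembly chaperone gene PSMG1 at -0.27 ± 0.0972 in SH (adjusted p = 0.0264). The ubiquitin genes Ubi-p5E and Ubi-p63E, which encode chains of fused ubiquitin, were among the lowest of the lists read here. Ubi-p5E was at -0.91 ± 0.128 in GH (adjusted p = 1.81e-05) and -0.90 ± 0.128 in SH (adjusted p = 1.26e-05), and Ubi-p63E at -0.72 and -0.98. In all, 3 of 7 genes of ubiquitin, its activation and its shuttles were lower in each housing, and the shuttle gene Rad23 was higher in SH at 0.44 ± 0.0957 (adjusted p = 0.001).

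Genes that control proteasome transcription did not move one way. cnc, which encodes the fly counterpart of the mammalian Nrf factors that activate subunit genes, was higher in dsx SH, at 0.47 ± 0.132 (edgeR adjusted p = 0.00657), and in GH was at 0.35 ± 0.131 (adjusted p = 0.0615). Its dimer partner gene maf-S was lower in both, at -0.51 ± 0.104 (adjusted p = 0.00114) and -0.45 ± 0.105 (adjusted p = 0.00167). Of the 8 genes of that list, 2 were lower in GH, where 13.6% of all genes were called lower. In SH 3 were lower and 1 higher, beside 23.4% and 18.7% of all genes.

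The remaining mutants moved few members. In fru, the ubiquitin receptor gene Rpn13 was the only member called, and it was higher in both housings, where 17% of all genes were called in GH and 13.6% in SH, and 9.37% and 7.47% were called higher. It read 50.1, 50.4 and 51.4 CPM in fru GH and 54.3, 51.4 and 55.2 CPM in fru SH, above every CS library, of which the highest was at 48.8 CPM. The log2 change was 0.23 ± 0.0693 (edgeR adjusted p = 0.0224) and 0.25 ± 0.0692 (adjusted p = 0.0173). In GH the call was lost without CS GH replicate 1 or 3, without fru GH replicate 1, 2 or 3, and within the notAC libraries. In SH it was lost without CS SH replicate 1, CS SH replicate 3 or fru SH replicate 3. Leaving out CS GH replicate 1, fru GH replicate 1 or any of those SH libraries left 0 members. The call was also lost in both housings when the 2 groups were fitted alone. Without CS GH replicate 2, 2 members were called in GH.

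Prosbeta4 was next, at 0.31 ± 0.11 in GH (edgeR adjusted p = 0.0536) and 0.28 ± 0.11 in SH (adjusted p = 0.0944), neither past the threshold. Against fru, Rpn13 and Prosbeta4 were lower in dsx in both housings, Rpn13 at -0.53 and -0.60 and Prosbeta4 at -0.34 and -0.45.

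In Or47b, 1 of 36 members was called in GH, as higher (3.79% of all genes were called, and 1.72% were called higher), and 0 in SH (8.43% called), with the pair Prosalpha1 and Prosalpha1R taken apart. In Or67d, 0 members were called in GH (9.77% of all genes) and 0 in SH (5.64%) by edgeR. At an unadjusted p under 0.05 there were 2 members in Or47b SH, 11 in Or67d GH and 0 in Or67d SH, beside 24.9%, 24.2% and 16.4% of all genes, and DESeq2 called 0, 1 and 0. In Or67d GH, the median over the standard subunits was 0.12, beside -0.01 over all genes, and 29 of 32 had a fitted change above 0, beside 47.4% of all genes.

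**Figure D5:**
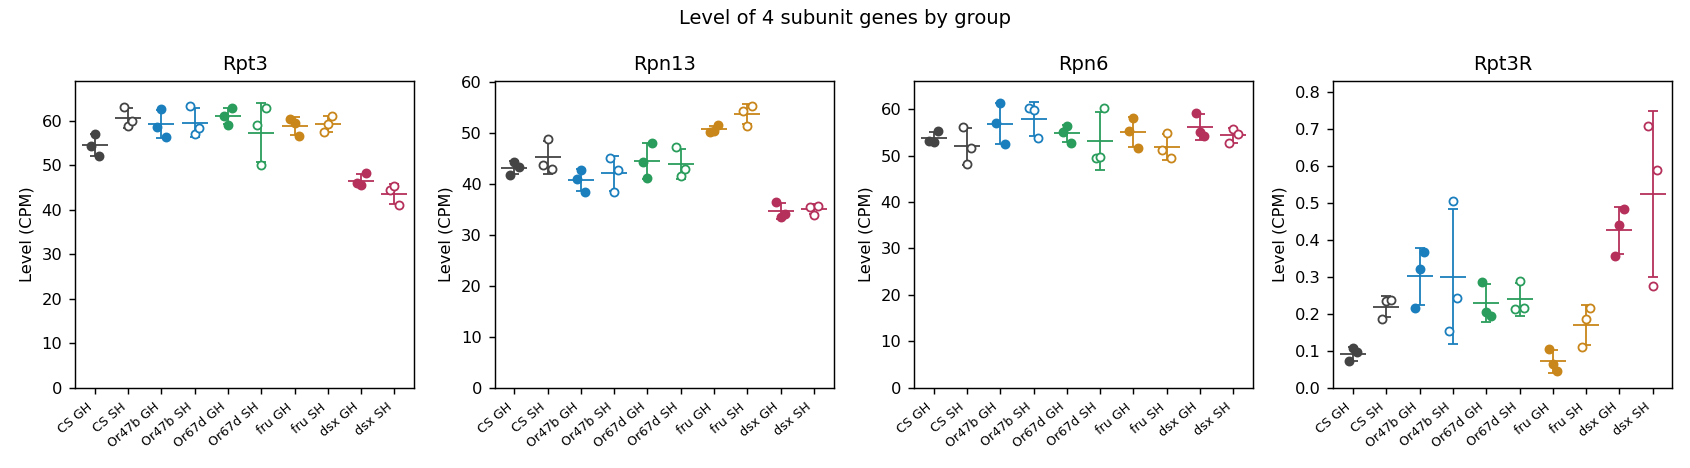
Level in CPM of the ATPase gene Rpt3, the ubiquitin receptor gene Rpn13, the lid gene Rpn6 and the paralogue Rpt3R by group. Points are libraries (filled GH, open SH), and bars are the mean and SD of 3. Rpt3 and Rpn13 are lowest in dsx, Rpn13 is highest in fru, Rpn6 overlaps between dsx and CS, and Rpt3R has its highest means in dsx.

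The testis-type paralogues other than Prosalpha1R were rare in the brain. Rpn13R was the highest of them, at 0.913 to 4.61 CPM, and was higher in the AC batch by 0.91 ± 0.198 on the log2 scale (edgeR adjusted p = 0.000533). Rpt6R was at 0 to 0.458 CPM and was called in no genotype.

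Rpt3R, a duplicate of the ATPase gene Rpt3, went the other way from its parent gene in dsx. Its counts were 3, 5 and 4 in the CS GH libraries and 38, 23 and 30 in dsx GH, that is 0.0923 ± 0.0185 CPM against 0.427 ± 0.0636 CPM (SD, n = 3). In SH the counts were 9, 11 and 13 against 36, 11 and 29, at 0.220 ± 0.0292 and 0.524 ± 0.224 CPM. In CPM, every dsx library was above every CS library in both housings, narrowly so in SH. The log2 change was 2.19 ± 0.451 in GH (edgeR adjusted p = 0.00119) and 1.27 ± 0.405 in SH (adjusted p = 0.0145). The call in GH was lost under 0 of 16 alternative fits, and that in SH under 4 of 16. In SH it was lost without CS SH replicate 1 and without dsx SH replicate 1. It was also lost there with the mitochondrial covariate and when the 2 groups were fitted alone. The lowest log2 change in SH over these fits was 0.58.

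In Or47b GH, Rpt3R was also higher than in CS, at 12, 17 and 14 counts and a log2 change of 1.66 ± 0.457 (edgeR adjusted p = 0.0407). This call did not survive the loss of any CS GH library, or of Or47b GH replicate 2 or 3, after each of which 0 members were called, and without Or47b GH replicate 1 there were 3. It was also lost within the notAC libraries. The exons of Rpt3R overlap the gene Alg12 on the opposite strand. These counts are too few to compare groups with small differences.

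Rpt4R, a duplicate of the ATPase gene Rpt4, was not tested. It had 0 counts in all 6 CS and all 6 Or47b libraries, 10, 8 and 2 counts in dsx GH, and 9, 5 and 7 counts in dsx SH. The other libraries had at most 2 counts.

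The dissection batch itself was called for 9 of 36 members, where 54.7% of all genes were called, and for 5 without fru SH replicate 3. Of the standard subunits, Prosalpha2, Prosbeta2 and Rpn11 were higher in AC, at 0.21, 0.14 and 0.14, and Rpt1, Rpn6 and Rpt5 were lower, at -0.19, -0.11 and -0.09. The changes of Prosalpha1 (-1.07 ± 0.367, edgeR adjusted p = 0.0172) and Prosalpha1R (0.36 ± 0.151, adjusted p = 0.047) were opposite, and their sum changed by -0.04 (adjusted p = 0.607). Because dsx has no AC library, its comparison with CS used the batch effect estimated in the CS, Or47b and fru libraries.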

How the data were processed

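RNA was measured in 30 brain libraries, made with a kit that keeps strand and sequenced as paired-end reads, per the labels' protocols. The authors deposited estimated counts per feature, of which 11.9% of values were not whole (tolerance 0), and the submitters' processing notes name STAR, Salmon, DESeq2 and BDGP6. Versions, settings and strand use in counting are not given in the sources used here. A deposited table of scaled signal was not used. Another deposited table gives the dissection batch, AC (6 libraries) or notAC (24), without a key.

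Features without a gene identifier took 0.6% to 1.38% of counts and were left out. Estimated counts were rounded to whole numbers. Testing used edgeR 4.0.16 (R 4.3.3), with filterByExpr over the 10 groups (11269 genes), TMM scaling, quasi-likelihood F tests from 1 fit with terms for group and batch, 19 residual degrees of freedom, and Benjamini-Hochberg adjustment per comparison, called under 0.05. Levels are CPM of TMM-scaled gene counts, and lengths and positions come from Ensembl release 115. DESeq2 1.42.0 was an alternative. Counts were simulated for the CS housing comparison (11269 genes), with changes put in genes drawn at random from all of them. Of these, 33 of 100 genes changed by 0.5 on the log2 scale and 71 of 100 changed by 1 were called.

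Groups came from the column names. There were 19 planned comparisons and 6 added after seeing the data (dsx against each other mutant). No replicates of the same group were duplicates, and libraries of different groups were not compared for this. Per comparison, up to 6 higher and 6 lower called members were named by smallest adjusted p, with the highest and lowest levels per length, the most abundant paralogues and called genes of fixed lists; others were named after their values were seen. The list names Ecm29, Txnl1 and Ufd1-like matched no gene. The members and lists were chosen with earlier results of these data known.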

Additional observations from a re-analysis of the deposited data

Results flagged for a closer look

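For 4 standard subunits, every SH library lay above every GH library in 1 genotype and below in another, as 4.93% of all genes tested did. Rpt4 had log2 changes for SH against GH of 0.15 in CS and 0.16 in fru and of -0.14 in dsx. Rpt3 was at 0.15 in CS and -0.0967 in dsx, and Rpn2 at 0.21 in CS and -0.0936 in dsx. The difference between dsx and CS in these 3 did not pass the test of the interaction (edgeR adjusted p = 0.286 for Rpt4 and Rpt3 and 0.283 for Rpn2). Rpn7 was at 0.0941 in Or47b and -0.0734 in dsx, and this difference, like that of Rpt4 between fru and dsx, was not tested.

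Rpt4R, a paralogue that did not pass the filter on low counts, was above all 6 CS libraries, which had 0 counts, in every dsx library. Its mean was 0.0931 CPM in dsx GH and 0.148 CPM in dsx SH, from 20 and 21 counts.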

How the results depend on the processing

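No member was called under any alternative for housing in each genotype, its average, the 4 differences from CS, or Or67d against CS in SH, which are 11 of the 25 comparisons. For dsx against CS the main counts of 14 members in GH and 25 in SH became 9 in GH under RLE scaling, 9 in GH without mitochondrially encoded genes, and 2 in each housing with the mitochondrial share as a covariate; the counts under the other settings on all 3 libraries a group stayed within 1.5 times. Leaving out 1 library gave 3 to 14 in GH and 19 to 23 in SH. Or47b against CS in GH (1 member) gave 0 with no filter, within notAC and with only the groups compared, 2 with Prosalpha1 and Prosalpha1R summed, and 0 to 3 leaving out a library; in SH (0) it gave 1 with only the groups compared and 1 with the pair summed. Or67d against CS in GH (0) gave 1 with DESeq2, 1 within notAC and 2 with only the groups compared. For fru against CS in GH (1) the counts were 2 under RLE scaling, 3 with DESeq2, 3 without mitochondrially encoded genes, 0 with only the groups compared and 0 to 2 leaving out a library; in SH (1) they were 0 with only the groups compared and 0 to 1 leaving out a library. With the mitochondrial share as a covariate, dsx against Or47b, Or67d and fru gave 9, 5 and 13 in GH (main 18, 23 and 20) and 13, 5 and 14 in SH (main 21, 24 and 27). In SH, dsx against Or67d gave 14 with only the groups compared. Leaving out a library gave 4 to 19, 20 to 23 and 12 to 19 in GH, and 17 to 21, 18 to 29 and 24 to 28 in SH, and 5 to 11 for the batch (main 9). The replicate block, whose numbers did not pair the samples (of 15 same-numbered pairs, 1 had a correlation of deviations over 0.1), gave 0 for Or47b and 2 for fru in GH, 3 for the batch, and 12 and 26 for dsx against CS in GH and SH. Of 14 named changes in dsx against CS in GH, 1 was kept under every alternative, and of 25 in SH, 2 were. Of the named changes in dsx against CS, 1 reversed: Rpn8 in SH, at 0.11 with the mitochondrial covariate. Of 468 alternative medians over the standard subunits, 11 moved by over 1 SD of a library around its group (0.0706 on the log2 scale). With the mitochondrial covariate these were dsx against CS in SH (-0.28 to -0.19), Or67d in GH (-0.31 to -0.18) and SH (-0.30 to -0.21) and fru in SH (-0.35 to -0.26), and the others followed the loss of Or47b GH replicate 1 or 2 or Or67d SH replicate 2. In CS GH, 4 of 32 levels per kb moved beyond 1 SD with the longest transcript. The causes of these changes were not tested. Depth limits the 12 untested paralogues. With 3 pools a group the simulated CS housing test called 33 of 100 changes of 0.5 in genes drawn from all genes tested. In the CS housing test the median SE was 0.129 over all genes and 0.0774 over the standard subunits. That recovery therefore does not hold for the subunits, for which it was not simulated.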
